A study of Mus musculus with 6 samples.

Results

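The Hippo pathway, its effectors YAP and TAZ and their TEAD partners were examined in tumour epithelial cells of mouse skin papillomas through 10 genes: Yap1, Wwtr1 (which encodes TAZ), Tead1, Tead2, Tead3, Lats1, Lats2, Amotl2, Ankrd1 and Axl. The genes were chosen by symbol for their place in the pathway, with earlier results of these data known. Every probe set annotated to exactly 1 of these symbols was taken. This gave 22 probe sets of the 34945 in the table that carry 1 gene, and 10 of 18193 genes. A further probe set shared between Lats2 and its neighbour Xpo4 was left out. The Sox2cKO group held 3 arrays of K14CREER:SOX2fl/fl mice, in which tamoxifen switches on a Cre recombinase made from the keratin 14 promoter, so that the floxed Sox2 gene is deleted in keratin 14-expressing epithelium. The CTRL group held 3 arrays of mice that the labels call control mice, with no allele stated. Both groups carried chemically induced benign papillomas and both received tamoxifen for 1 week. Living cells were sorted as Epcam-positive, alpha6 integrin-positive and negative for CD45, CD31 and CD140a, and their RNA was read on the Affymetrix Mouse Genome 430 2.0 array.

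The Hippo pathway is a kinase cascade that restrains growth when cells are crowded or under low tension. The kinases MST1 and MST2 (Stk4 and Stk3), with the scaffolds SAV1 and MOB1, activate LATS1 and LATS2, which phosphorylate YAP and TAZ and so hold them in the cytoplasm or send them to degradation. Unphosphorylated YAP and TAZ enter the nucleus and, having no DNA-binding domain of their own, act through TEAD factors on targets such as Ccn1, Ccn2, Ankrd1, Amotl2, Axl and Lats2 itself. In skin, YAP and TAZ are known for sustaining the proliferation of basal keratinocytes. The arrays read RNA, and phosphorylation and nuclear entry were not measured.

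TEAD factors recognise the letters GGAATG, which read CATTCC on the other strand, and the promoter windows of the members were searched for both forms without other criteria. Windows ran from 250 bases before to 50 bases after a transcript start, in RefSeq sequence of build GRCm38.p6, and 9 of the 10 genes had at least 1. The letters were present for 7 of these 9 genes and in 9 of their 13 windows, against 14.7% of all 32851 windows and 16.6% of 27025 genes. Windows of Wwtr1 overlap, as do those of Tead3, and the Wwtr1 site is counted in both of its windows. A gene with several windows has more chances to hold the letters. Stretches around the letters are shown for both coactivators and for the targets Amotl2, Ankrd1 and Axl, and binding of TEAD factors to them was not measured. Each is printed on the strand of its gene with the letters in capitals, and a match is a description of the sequence only.
Yap1, chr9:8004710-8004759, minus strand: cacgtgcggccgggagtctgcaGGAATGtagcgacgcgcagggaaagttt
Wwtr1, chr3:57576019-57576068, minus strand: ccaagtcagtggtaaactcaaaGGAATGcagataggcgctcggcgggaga
Amotl2, chr9:102717717-102717766, plus strand: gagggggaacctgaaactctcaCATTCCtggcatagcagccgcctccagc
Ankrd1, chr19:36120027-36120076, minus strand: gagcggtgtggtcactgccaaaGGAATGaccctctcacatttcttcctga
Ankrd1, chr19:36119940-36119989, minus strand: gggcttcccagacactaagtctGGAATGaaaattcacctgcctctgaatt
Axl, chr7:25788939-25788983, minus strand: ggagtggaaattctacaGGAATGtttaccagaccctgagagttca
The first capital letter lay 141 bases before the start in Yap1, 65 in Amotl2, 210 and 123 in Ankrd1 and 233 in Axl. In Wwtr1 the same site lay 170 or 136 bases before its 2 annotated starts. Tead3 and Lats2 also held the letters, with those of Lats2 close to or after the transcript start, and the windows of Lats1 and Tead2 held neither form.

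All values are on a log2 scale, so that 1 unit is a 2-fold difference, and differences are Sox2cKO minus CTRL. The label check held: Sox2 read 4.07, 4.63 and 3.23 in Sox2cKO and 7.19, 8.31 and 8.18 in CTRL (adjusted p = 0.244 in limma). Both positive sort markers exceeded the array's 40th percentile on all 6 arrays. Itga6, the alpha6 integrin gene, read 12.26 ± 0.19 in Sox2cKO and 12.17 ± 0.07 in CTRL, and Epcam 10.85 ± 0.35 in Sox2cKO and 11.31 ± 0.20 in CTRL (SD, n = 3 each), a difference of -0.46 that did not pass. The basal keratin gene Krt5 read 13.39 ± 0.06 in Sox2cKO and 13.39 ± 0.04 in CTRL. Among the exclusion markers, Pecam1 (CD31) exceeded the 40th percentile on 0 arrays, Ptprc (CD45) on 4 and Pdgfra (CD140a) on all 6, and Pdgfra read 6.32 ± 0.89 in Sox2cKO and 5.30 ± 0.24 in CTRL (difference 1.02, adjusted p = 1.0 in limma). By Xist and Eif2s3y, a female pattern was seen on 0 of 3 Sox2cKO arrays and 2 of 3 CTRL arrays, so sex and genotype are partly confounded. Correlations between arrays lay between 0.966 and 0.990. Array medians lay between 5.42 and 5.46, with the normalization not stated, and a lower value cannot tell fewer expressing cells from less RNA per cell.

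No member differed past the threshold. Sox2, the deleted gene, was 15.1-fold lower and did not pass either, so not passing does not show that a member was unchanged. Testing required values above the array's 40th percentile (4.90 to 4.94) on 3 or more of the 6 arrays, which 16 of the 22 probe sets and 8 of the 10 genes met. Tead2 and Ankrd1 had no probe set past this filter. In limma, with Benjamini-Hochberg adjustment over all 23534 probe sets tested, 0 of the 16 had an adjusted p under 0.05, and the same held for 0% of all probe sets. At an unadjusted p under 0.05 there were 2 of 16 members and 687 of all probe sets (2.92%). The members' median difference was 0.10, with 12 higher and 4 lower, beside a median of 0.01 and 52.2% higher over all probe sets tested. Of the 16, 14 differed by less than 0.25. For 15 of the 16 the 95% interval of the difference lay within 2-fold in either direction, and the exception was Lats1 probe set 1427679_at.

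**Figure D1:**
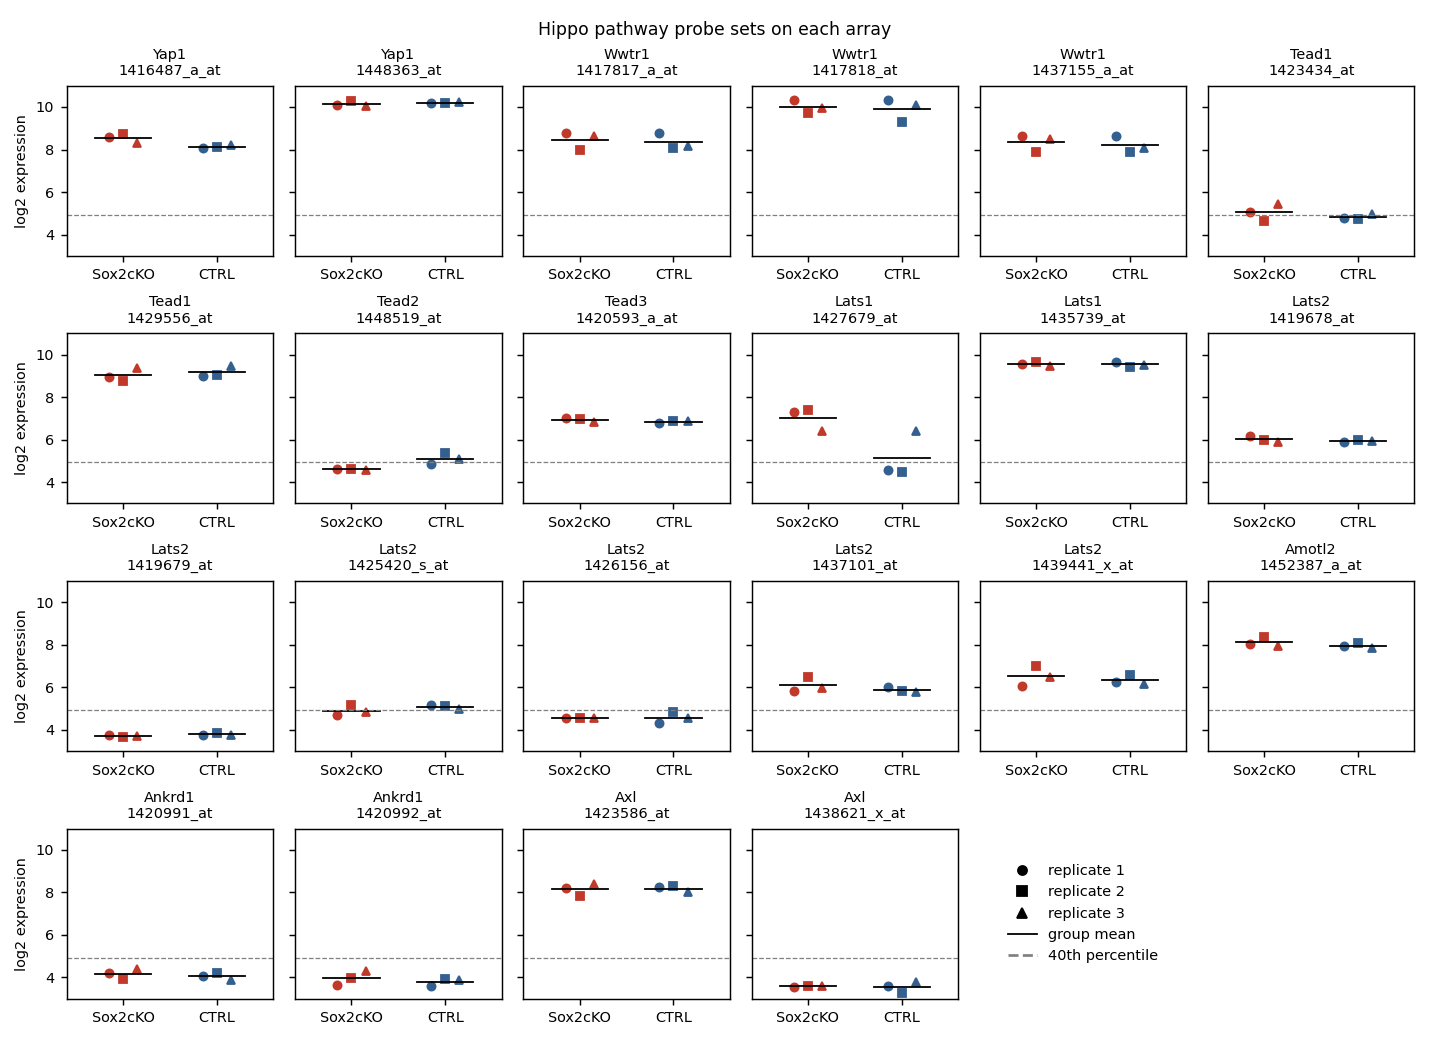
Log2 expression (y axis) of the 22 probe sets in Sox2cKO and CTRL cells (x axis), 1 point per array with the marker giving the replicate number, a bar for the group mean and a dashed line at the 40th percentile (4.94, the highest of the 6 arrays). Yap1 1448363_at sits at 10.05 to 10.30 throughout, both Ankrd1 probe sets stay below the dashed line, and the group means of Lats1 are 7.03 in Sox2cKO and 5.14 in CTRL for 1427679_at, against 9.55 and 9.54 for 1435739_at.

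The coactivators were read well above the filter on every array. Yap1 probe set 1448363_at read 10.08, 10.30 and 10.05 in Sox2cKO and 10.21, 10.18 and 10.24 in CTRL. The groups overlapped, and the difference was -0.07 with a 95% interval from -0.36 to 0.22 (adjusted p = 1.0 in limma). The other Yap1 probe set, 1416487_a_at, read 8.61, 8.71 and 8.29 in Sox2cKO and 8.06, 8.13 and 8.22 in CTRL. Here every Sox2cKO array lay above every CTRL array, by 0.40 on average (standard error 0.15, interval 0.06 to 0.75), a 1.32-fold difference. It did not pass (adjusted p = 1.0 in limma; exact two-sided permutation p = 0.1, the smallest that 3 arrays against 3 allow). Groups that do not overlap, with Sox2cKO higher, occurred in 3.1% of all probe sets tested and in 2 of the 16 member probe sets. The estimates of the Yap1 probe sets were 0.47 apart, and a gap at least as wide was present in 8.41% of the 6019 genes that had several tested probe sets.

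Wwtr1 varied more between arrays of 1 group than between the groups. Its probe set 1417818_at read 10.34, 9.71 and 9.96 in Sox2cKO and 10.33, 9.30 and 10.10 in CTRL, a difference of 0.09 (interval -0.58 to 0.76). Probe set 1417817_a_at read 8.76, 7.97 and 8.62 in Sox2cKO and 8.77, 8.08 and 8.18 in CTRL, and 1437155_a_at read 8.63, 7.86 and 8.50 against 8.63, 7.88 and 8.08. On all 3 probe sets replicate 1 was the highest array and replicate 2 the lowest within both groups, and the replicate 1 arrays of the 2 groups differed by at most 0.01. The adjusted p was 1.0 for each in limma. With the sex pattern as a covariate, which leaves CTRL replicate 1 as the comparison for the Sox2cKO arrays, the 3 differences were -0.32, -0.33 and -0.30 and did not pass, so no direction can be given for Wwtr1.

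TEAD1 to TEAD3 are the DNA-binding partners that bring YAP and TAZ to their targets. Tead1 probe set 1429556_at read 8.97, 8.76 and 9.39 in Sox2cKO and 8.99, 9.04 and 9.46 in CTRL, overlapping groups with a difference of -0.12 (interval -0.60 to 0.36). Its dimmer probe set 1423434_at passed the filter on 3 arrays, at 5.06, 4.64 and 5.44 in Sox2cKO and 4.76, 4.73 and 4.97 in CTRL, and pointed the other way (0.23). Tead3 varied little, at 7.0, 6.95 and 6.84 in Sox2cKO and 6.80, 6.86 and 6.89 in CTRL, a difference of 0.08 (interval -0.19 to 0.35). Tead4, a family member outside the 10 genes, read 6.84, 6.16 and 6.69 in Sox2cKO and 6.43, 6.65 and 6.56 in CTRL (0.02).

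Tead2 was the one TEAD gene with separated groups, at the dim end of the scale. It read 4.64, 4.64 and 4.58 in Sox2cKO and 4.85, 5.38 and 5.10 in CTRL, so every Sox2cKO array lay below every CTRL array, and 0 Sox2cKO arrays and 2 CTRL arrays exceeded the 40th percentile. The difference was -0.49 (standard error 0.15), or 1.41-fold lower. Tead2 failed the filter, and in the limma fit over all 34945 probe sets with 1 gene its adjusted p was 1.0 (exact two-sided permutation p = 0.1). Among tested probe sets 3.16% had groups that do not overlap with Sox2cKO lower, and 0 of the 16 tested members did. Without the filter, groups were apart in either direction in 7.0% of probe sets and in 3 of the 22 member probe sets, Tead2 among them.

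LATS1 and LATS2 are the kinases that phosphorylate YAP and TAZ, and the largest difference of any member was in 1 of the Lats1 probe sets. Lats1 1427679_at read 7.28, 7.38 and 6.43 in Sox2cKO and 4.56, 4.46 and 6.39 in CTRL. CTRL replicates 1 and 2 lay below the 40th percentile, while CTRL replicate 3 lay 0.04 below the lowest Sox2cKO array, so the groups were apart by that margin only. The difference was 1.89 (standard error 0.52, interval 0.67 to 3.12), 3.71-fold higher, with an unadjusted p of 0.0078 in limma and an adjusted p of 1.0 over all probe sets. This probe set passed the filter through the 3 Sox2cKO arrays and CTRL replicate 3. The second Lats1 probe set, 1435739_at, read 9.54, 9.63 and 9.48 in Sox2cKO and 9.64, 9.44 and 9.53 in CTRL, with overlapping groups and a difference of 0.01 (interval -0.28 to 0.29). The estimates of the 2 probe sets were 1.88 apart, and 5 of the 6019 genes with several tested probe sets, Lats1 among them, had a gap at least as wide. Which stretch of the Lats1 transcripts each probe set reads was not analysed here, and the data give no single direction for Lats1.

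Lats2, which is both a kinase of the pathway and one of its targets, had 6 probe sets, of which 4 were tested. The one of highest mean, 1439441_x_at, read 6.07, 6.98 and 6.48 in Sox2cKO and 6.26, 6.56 and 6.15 in CTRL, a difference of 0.18 (interval -0.38 to 0.74). Probe set 1437101_at differed by 0.23, 1419678_at by 0.08 and 1425420_s_at by -0.16, and groups overlapped in all 4. Probe sets 1419679_at and 1426156_at exceeded the 40th percentile on 0 arrays.

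Amotl2, Axl and Ankrd1, targets of YAP and TAZ like Lats2, had overlapping groups. Amotl2, an angiomotin-family protein of cell junctions that binds YAP, read 8.06, 8.36 and 7.95 in Sox2cKO and 7.95, 8.08 and 7.87 in CTRL, a difference of 0.15 (interval -0.19 to 0.50). Axl, a receptor tyrosine kinase for the ligand GAS6 that mesenchymal and myeloid cells also carry, read 8.21, 7.84 and 8.41 in Sox2cKO and 8.24, 8.30 and 8.0 in CTRL (probe set 1423586_at, -0.02, interval -0.44 to 0.39). Its other probe set, 1438621_x_at, exceeded the 40th percentile on 0 arrays. Ankrd1, an ankyrin repeat cofactor best known from heart muscle, stayed below the 40th percentile on all 6 arrays with both probe sets. Its probe set 1420991_at read 4.20, 3.93 and 4.38 in Sox2cKO and 4.06, 4.19 and 3.90 in CTRL, and 1420992_at read 3.66, 3.99 and 4.32 against 3.58, 3.93 and 3.88. The letters GGAATG shown above for Yap1, Wwtr1, Ankrd1 and Axl, and CATTCC for Amotl2, stand at genes both below the intensity filter (Ankrd1) and past it.

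**Figure D2:**
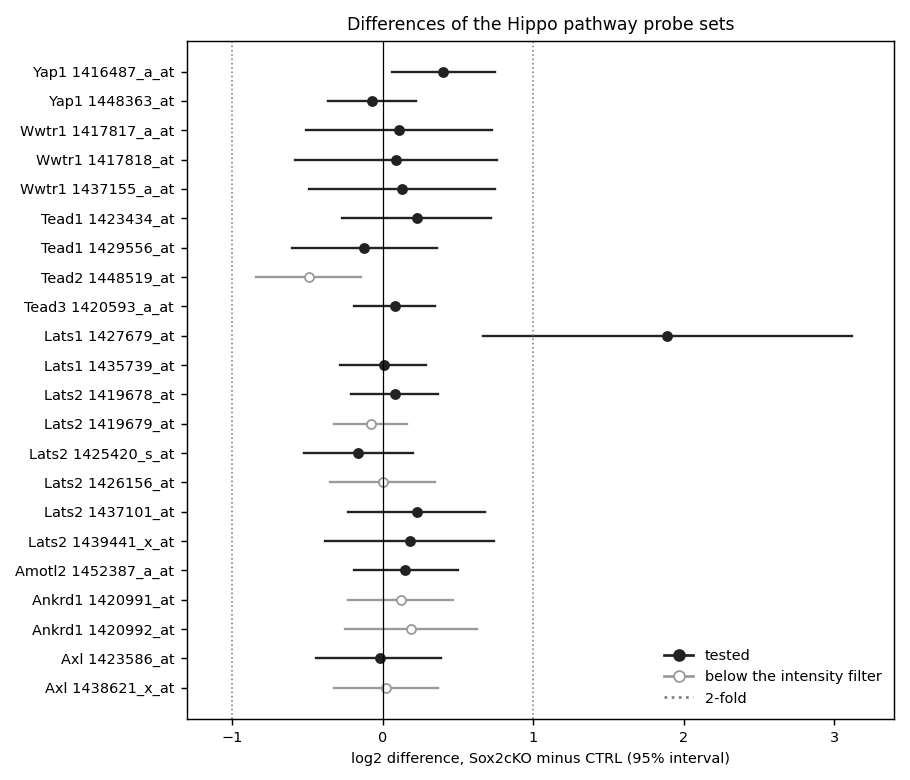
Log2 difference, Sox2cKO minus CTRL (x axis), for each of the 22 probe sets (rows), with its 95% interval from limma. Filled points were tested, open points failed the intensity filter and their intervals come from the fit without the filter, and dotted lines mark 2-fold. Of the tested intervals only those of Yap1 1416487_a_at (0.06 to 0.75) and Lats1 1427679_at (0.67 to 3.12) do not span 0.

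The rest of the pathway was read from lists of textbook members, with each gene represented by its tested probe set of highest mean. Over the 13222 genes tested, 0% had an adjusted p under 0.05 in limma and 354 an unadjusted p under 0.05, while groups were apart with Sox2cKO higher in 2.73% and with Sox2cKO lower in 3.12%. The median difference over these genes was near 0, and 50.6% were higher.

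Hippo kinases and upstream regulators stayed close to 0 as a list. Of 28 genes 26 were tested, with 15 higher and 11 lower, a median of 0.02 and a range from -0.24 to 0.41, and 0 passed. Groups were apart upward in 1 gene, Stk4, which encodes the kinase MST1 at the head of the cascade, and downward in 1, Llgl1, a scaffold of epithelial polarity. Stk4 read 9.73, 9.83 and 9.73 in Sox2cKO and 9.26, 9.25 and 9.55 in CTRL (difference 0.41, interval 0.10 to 0.71, adjusted p = 0.999 in limma). Its other tested probe sets differed by 0.31, also with groups apart, and by -0.13. Llgl1 read 9.36, 9.47 and 9.25 in Sox2cKO and 9.48, 9.63 and 9.60 in CTRL (-0.21). The LATS coactivator gene Mob1b differed by 0.19, with overlapping groups.

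Among TEAD partners and cofactors 7 of 9 genes were tested, 4 higher and 3 lower, with a median of 0.02 and 0 past the threshold. Vgll3, a vestigial-like cofactor that competes with YAP for TEADs, read 7.38, 6.58 and 7.67 in Sox2cKO and 6.86, 6.23 and 6.97 in CTRL (0.52, interval -0.21 to 1.25). Its 2 other tested probe sets differed by 0.68 and 0.66, all with overlapping groups, and the first was at 0.29 without CTRL replicate 2 or without Sox2cKO replicate 3. Trp73, a p53-family factor that YAP can bind, differed by -0.36, and the WW domain-binding gene Wbp2 by 0.19.

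YAP and TAZ target genes outside the members were more often lower than higher. Of 30 genes 27 were tested, 20 lower and 7 higher, with a median of -0.19, against 50.6% higher over all genes, and 0 passed. The targets among the members are outside this list and did not share its lean. Amotl2 differed by 0.15, Lats2 by 0.18 (1439441_x_at, its probe set of highest mean) and Axl by -0.02, while Ankrd1 failed the filter. The mean log2 level of the 27 was 8.50, 8.48 and 8.56 in Sox2cKO and 8.60, 8.62 and 8.72 in CTRL, so every Sox2cKO array lay below every CTRL array by a small margin. With 3 arrays per group, a single value separates in either direction in 10% of random group labellings. The list was chosen with earlier results of these data known, so its split and separation cannot be read as for a list fixed in advance. The 27 genes were read on the same arrays and are not replicates of each other. The median was -0.09 with the sex covariate, and between -0.22 and -0.08 when 1 array was left out. Ajuba and Ptpn14 stand in this list and in that of upstream regulators.

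Of the 27 tested targets, groups were apart downward in 1, Arhgef17, and upward in 1, Fstl1. Over all genes tested these shares were 3.12% and 2.73%. Arhgef17, a RhoA exchange factor gene, read 6.73, 6.75 and 6.92 in Sox2cKO and 7.04, 7.78 and 7.08 in CTRL (-0.50, adjusted p = 0.999 in limma), but its 4 other tested probe sets differed by -0.22, -0.06, -0.06 and 0.04. Without CTRL replicate 2 its difference was -0.26. The survivin gene Birc5, which is also a mitotic gene, differed by -0.32 (interval -0.71 to 0.07). The 2 targets most used as YAP reporters were singled out after their values were seen. Ccn1, a matricellular protein gene, read 10.82, 10.66 and 10.69 in Sox2cKO and 10.67, 10.99 and 11.39 in CTRL (-0.30, interval -0.74 to 0.15). Ccn2, the connective tissue growth factor gene, read 6.38, 7.37 and 5.91 in Sox2cKO and 6.37, 7.10 and 6.84 in CTRL (-0.22, interval -1.09 to 0.65). Neither passed.

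**Figure D3:**
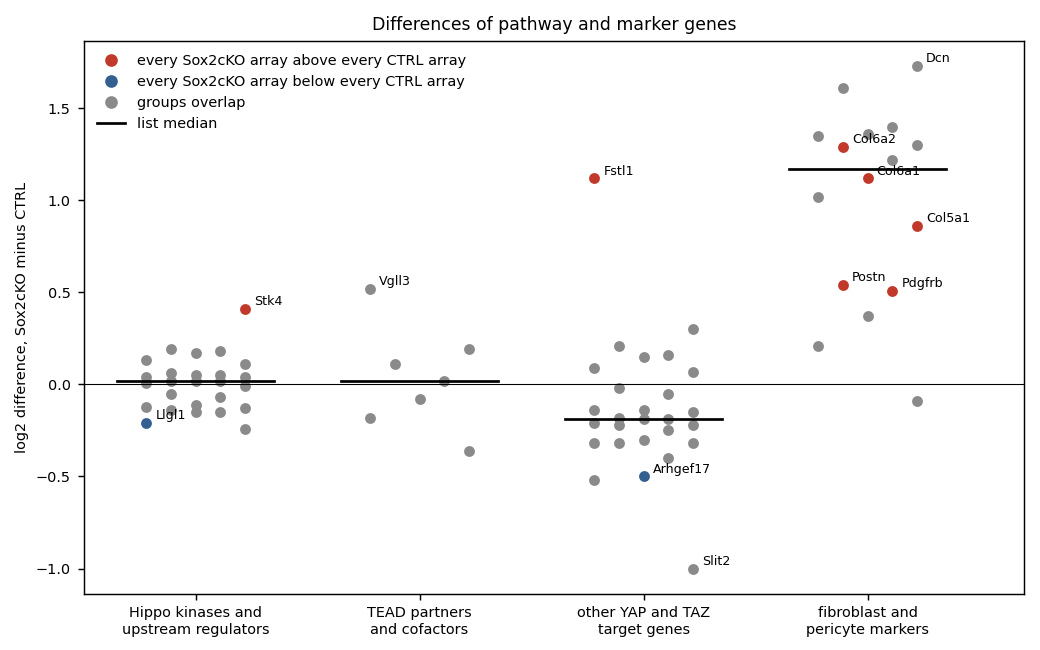
Log2 difference, Sox2cKO minus CTRL (y axis), of each tested gene in 4 lists (x axis), 1 point per gene, with a bar at the list median. The pathway lists have medians of 0.02, 0.02 and -0.19, and the fibroblast and pericyte markers one of 1.17.

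Fstl1, a secreted follistatin-like glycoprotein gene, had the largest positive difference among the tested targets, beside higher values of fibroblast markers. It read 7.04, 7.53 and 8.66 in Sox2cKO and 7.0, 6.98 and 5.90 in CTRL (1.12, interval 0.05 to 2.19, adjusted p = 0.999 in limma), and its second tested probe set differed by 1.19. Without Sox2cKO replicate 3 the difference was 0.66, and without CTRL replicate 3 it was 0.76. Fibroblast and pericyte markers were higher in 15 of 16 tested genes of 18, with a median of 1.17 and 0 past the threshold. Groups were apart upward in 5 of the 16 and downward in 0, beside 2.73% and 3.12% of all genes tested. Their mean log2 level was 8.21, 8.35 and 9.43 in Sox2cKO and 7.94, 7.90 and 7.18 in CTRL. The markers of smallest unadjusted p were Lum (1.61), Col5a1 (0.86) and Dcn, which read 8.29, 9.30 and 10.71 in Sox2cKO and 7.88, 8.40 and 6.81 in CTRL (1.73), while Fap failed the filter. Pdgfra, a member of the list, read 5.49, 6.21 and 7.25 in Sox2cKO and 5.52, 5.32 and 5.05 in CTRL (1.02). Without Sox2cKO replicate 3 the marker median was 0.64, and without CTRL replicate 3 it was 0.77. Fstl1, like the markers, was highest in Sox2cKO replicate 3 and lowest in CTRL replicate 3, and the part of fibroblasts in its difference was not tested.

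**Figure D4:**
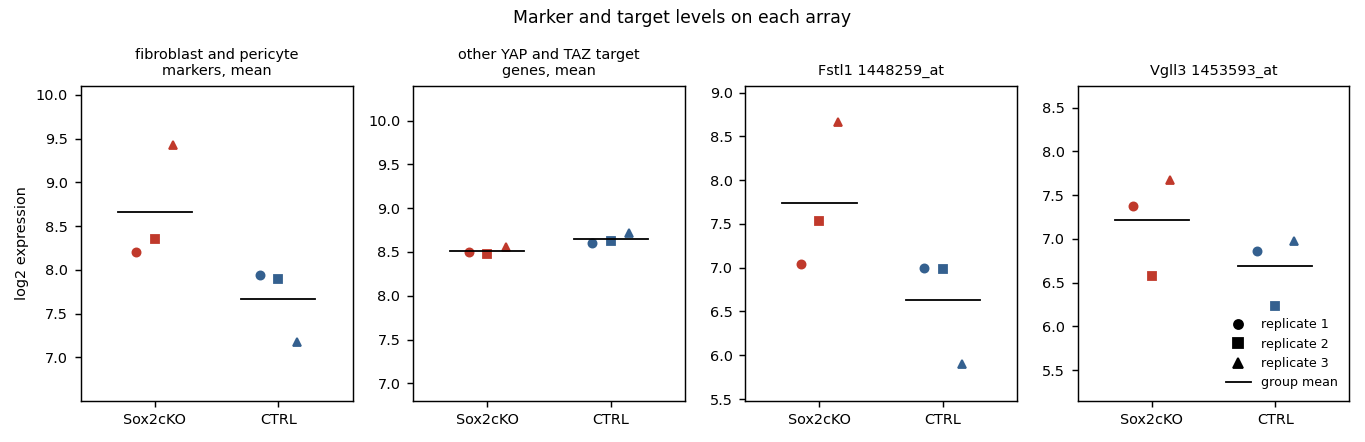
Log2 expression (y axes, each spanning 3.6 units) in Sox2cKO and CTRL cells (x axes), 1 point per array and a bar for the group mean, for the mean of 16 fibroblast and pericyte markers, the mean of 27 other YAP and TAZ target genes, Fstl1 and Vgll3. The target mean is 8.48 to 8.56 in Sox2cKO and 8.60 to 8.72 in CTRL, while the marker mean spans 8.21 to 9.43 in Sox2cKO and 7.18 to 7.94 in CTRL.

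The lists of the remaining cell types had medians between 0.02 and 0.33, and differences between lists were not tested. Leukocyte markers had a median of 0.10 in 7 tested genes, and the 3 of smallest unadjusted p were Cd68 (0.43), Lyz2 (0.43) and Csf1r (0.07), with Aif1, Itgam and Cd79a failing the filter. Endothelial markers had a median of 0.04 in 4 tested genes, with Cldn5 at 0.16, Egfl7 at 0.04 and Esam at -0.05, while Pecam1, Cdh5, Tek and Emcn failed the filter. Melanocyte markers had a median of 0.06 in 6 genes, with Mitf at 0.46, Mlana at 0.20 and Sox10 at -0.07. That median turned on single arrays, at 0.52 without Sox2cKO replicate 3, 0.19 without CTRL replicate 2, 0.13 without CTRL replicate 1, -0.06 without Sox2cKO replicate 1 and -0.16 without Sox2cKO replicate 2. Basal keratinocyte markers had a median of 0.02 in 8 genes, with Epcam at -0.46, Cdh1 at 0.21 and Itga6 at 0.09. Suprabasal markers were higher in 7 of 7 tested genes, with a median of 0.33. The median was 0.09 without CTRL replicate 2, 0.12 without Sox2cKO replicate 1, 0.13 without Sox2cKO replicate 2, 0.65 without Sox2cKO replicate 3 and 0.50 without CTRL replicate 1. The members of smallest unadjusted p were the cornified envelope genes Lor (0.33) and Ivl (0.84) and the suprabasin gene Sbsn (0.39). With the sex covariate the median of this list and the difference of Ivl were both -0.13. Groups were apart upward in 1 of 4 endothelial genes (Cldn5), 1 of 6 melanocyte genes (Mitf) and 1 of 7 suprabasal genes (Lor). The share over all genes tested was 2.73%, and 0 genes of these 5 lists passed in limma.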

How the data were processed

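The deposited table holds 1 value per probe set and array, taken as log2 from the range of values (2.65 to 14.44) because the scale is not named. R 2.14.0 was used by the authors, per the submitters' processing notes. Their background correction, summarising method and normalization are not given in the sources used here. Per the labels' protocols, 100 ng of total RNA per sample was amplified with a 3' IVT kit. Gene names came from the platform annotation: 34945 probe sets had 1 gene, 932 several and 9160 none, and 64 were controls. The test of differences was limma 3.58.1 (R 4.3.3, two-sided, eBayes without trend or robust options), run on probe sets and then on 1 probe set per gene, and the procedure was tested on simulated data. For single values an exact permutation test of group means was used. Named genes are the members, Sox2, the sort markers and up to 3 genes of smallest unadjusted p per list, and others were added after their values were seen. Members and lists were chosen with earlier results of these data known. Deviations from the group means correlated at 0.206 to 0.288 for the 3 pairs of arrays with the same replicate number. For pairs of unlike number from the 2 groups the correlations were -0.333 to 0.064. The numbers were therefore treated as pairs in an alternative fit. The labels do not say which arrays share an animal, so p-values measure the spread between these arrays, whose number limits the precision.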

Additional observations from a re-analysis of the deposited data

How the results depend on the processing

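With no filter, a stricter filter, trend and robust moderation, the replicate block, 16 added on the linear scale or quantile normalization, 0 probe sets, 0 genes and 0 members passed, and the members' differences kept their direction. With the sex-pattern covariate 1 probe set and 1 gene passed, and 0 members. Leaving out each array gave 0 to 7 probe sets, 0 to 5 genes and 0 members. The 7 and 5 came without CTRL replicate 1, the CTRL array lacking the female pattern, where sex and genotype cannot be told apart. The 5 genes were Xist and Eif2s3y, which define the sex pattern, with Kdm5d, Uty and Sox2. When 1 array was left out, 2 to 5 of 16 member probe sets had groups apart, against 11.1% to 20.6% of all probe sets. Yap1 1416487_a_at and Lats1 1427679_at were among them by construction, because groups apart on all arrays stay apart when 1 is removed. The differences of these 2 ranged from 0.32 to 0.53 and from 1.56 to 2.52. Of 204 recomputed member differences 19 turned sign, 14 of them on leaving out an array, and none was a called value. With the sex covariate these were Wwtr1 1417817_a_at (-0.32), 1417818_at (-0.33) and 1437155_a_at (-0.30), Tead1 1429556_at (0.05) and Lats1 1435739_at (-0.10). Leaving out an array gave ranges of -0.05 to 0.35, -0.21 to 0.30 and -0.03 to 0.37 for the Wwtr1 probe sets in that order, -0.30 to 0.02 for Tead1 1429556_at, -0.04 to 0.06 for Lats1 1435739_at, -0.05 to 0.40 for Lats2 1439441_x_at and -0.15 to 0.13 for Axl 1423586_at. The cause was not tested. Dim probe sets limit what can be read of Tead2 and Ankrd1.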
